A study of Mus musculus with 6 samples.

Results

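Canonical Wnt target genes were followed in fetal mouse lungs that lacked Smad1 in the epithelium. The members are 10 genes known as feedback and target genes of beta-catenin signalling: Axin2, Apcdd1, Tnfrsf19, Lef1, Tcf7, Nkd1, Lgr5, Sp5, Rnf43 and Znrf3. Every probe set (a group of short oligonucleotides on the array that reads 1 transcript) whose platform annotation gave 1 of these symbols was taken. This found 23 probe sets for 9 of the genes, out of 45037 probe sets for 18193 genes in all. Tcf7 had no probe set under this rule and was not analysed here. The study compared 3 wild type mice with 3 mice carrying a conditional knockout of Smad1 in the lung epithelium (Smad1 CKO), all labelled strain C57/BL6 and taken at E18.5, shortly before birth. The left lobe of each lung was read on 1 Affymetrix Mouse430_2 array, and the mice formed 3 pairs of 1 wild type and 1 CKO animal. Neither the Cre line nor the deleted part of Smad1 is named in the labels, which also do not say whether the wild type mice carry Cre or a floxed allele. The lobe also holds mesenchyme, vessels and blood, in which Smad1 was not targeted.

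Wnt proteins bind Frizzled and Lrp receptors on the cell surface. This stops a destruction complex built on Axin and Apc from degrading beta-catenin, which then enters the nucleus and switches on genes with factors of the Tcf/Lef family. Many of the genes switched on restrain the pathway in turn, so their mRNA is commonly read as a measure of Wnt signalling. In the fetal lung such signalling takes place in both epithelium and mesenchyme.

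Levels are deposited intensities, which are linear and are compared only within a probe set. Differences are on the log2(intensity + 1) scale, CKO minus wild type within a pair, given as the mean of 3 pairs with the SD over pairs. Each gene is represented by its brightest probe set. Other probe sets are given for the members only, so those of all other genes named here were not compared. P-values come from limma with the pair as a block. They set the mean difference against the spread of the pair differences, which limma draws toward the spread typical of all probe sets. The p-values were adjusted by Benjamini-Hochberg over all 45037 probe sets. A lower signal in a whole lobe cannot tell fewer cells of a type from less RNA per cell.

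The array of CKO lung 3 stood apart from the others. With all probe sets split by brightness into 3 groups of like size, the brightest had median differences of -0.30, -0.02 and -0.96 in pairs 1 to 3, and the dimmest had 0.14, 0.02 and 0.28. As a rough floor, the 95th percentile of 43 olfactory receptor probe sets, genes taken as mostly silent in lung, was an intensity of 57.1 to 75.9 on 5 arrays and 167 on CKO 3. The array of CKO lung 1 had a log2 level of 10.95 for Xist and 3.78 for the Y-linked Eif2s3y, against 6.07 to 7.70 and 7.06 to 9.04 on the others, so the mice of pair 1 were unlike in these sex-linked genes. Smad1 itself differed by 0.06 ± 0.51 (SD, 3 pairs), with intensities of 1026, 1089 and 739 in wild type and 1111, 1577 and 529 in CKO lungs. This probe set cannot check the knockout, because the position of the deletion is unknown and cells outside the epithelium keep the gene. Values are therefore given by pair, and results are also given without pair 3.

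The members did not share 1 direction. Apcdd1 and Tnfrsf19 were the lowest in CKO lungs, at 2.34-fold and 2.26-fold lower intensity, followed by Nkd1, Axin2 and Lef1. Rnf43 was higher in all 3 pairs, and Sp5 was higher in pairs 1 and 2 and lower in pair 3. Znrf3 had no common direction, and Lgr5 was slightly higher at a signal near background. No member passed the adjusted threshold of 0.05 (lowest adjusted p = 0.367), which was passed by 0 genes by their brightest probe set (0.0%) and by 1 probe set of all (0.00222%). At an unadjusted p under 0.05 in limma, 5 of the 9 members were lower and 1 was higher. Among all genes 9.96% were lower and 4.96% higher by that measure.

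By direction, 5 members were lower in all 3 pairs, a pattern met by 29.3% of all genes, and 2 were higher in all 3 pairs, met by 21.0%. The groups did not overlap for 4 members that were lower, Apcdd1, Tnfrsf19, Nkd1 and Lef1, as for 6.05% of all genes, and for 1 that was higher, Lgr5, as for 4.25%. The median over the 9 members was -0.51, against -0.09 over all genes, with -0.40, -0.34 and -0.86 in the 3 pairs. Of the 9 members, 5 lie in the brightest of the 3 brightness groups, whose median over all its probe sets was -0.45. The members' median was -0.29 after quantile normalization, -0.18 after cyclic loess and -0.29 with the mean of each gene's probe sets. In pairs 1 and 2 alone the same 5 members were lower in both, as were 34.2% of all genes, and 3 were higher in both, as were 26.8%. Of the 23 probe sets, 13 were lower in all 3 pairs and 3 higher, against 24.1% and 22.7% of all probe sets.

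**Figure D1:**
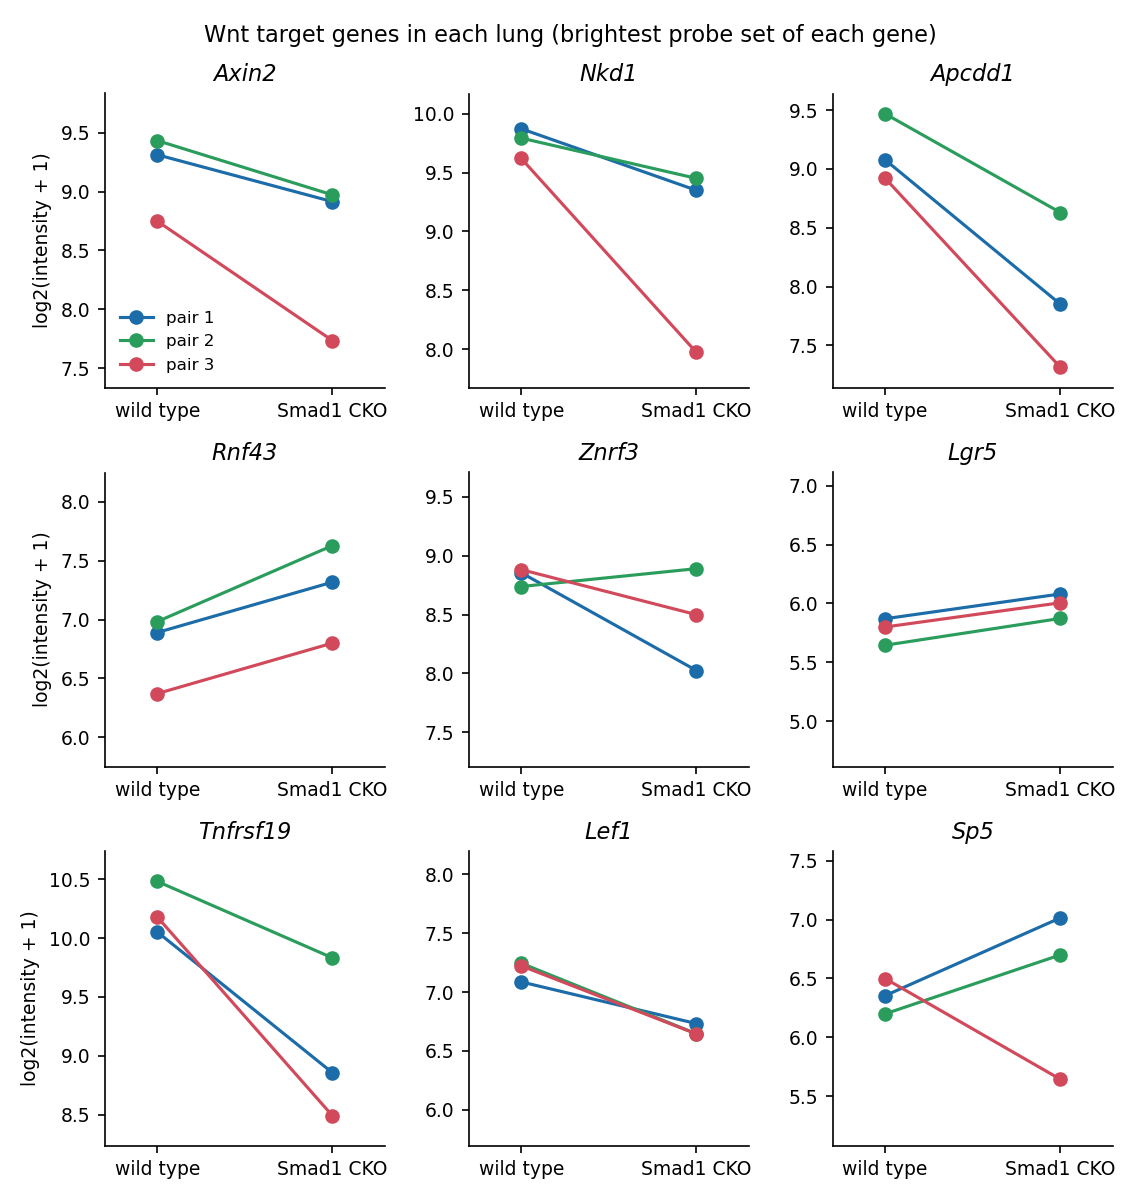
Level of each Wnt target gene in each lung, as log2(intensity + 1) of its brightest probe set, with a line joining the wild type and the Smad1 CKO lung of a pair. Each panel spans the same range of log2 units. The lines for Apcdd1, Tnfrsf19, Nkd1, Axin2 and Lef1 slope down in all 3 pairs and those for Rnf43 and Lgr5 slope up.

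The feedback inhibitors that act at the cell surface or on receptors are Apcdd1, Rnf43 and Znrf3. Apcdd1 encodes a membrane protein that binds Wnt and its Lrp co-receptors and dampens the signal. Its intensity was 539, 707 and 483 in wild type lungs 1 to 3 and 229.8, 395 and 158 in CKO lungs 1 to 3. Every CKO lung lay below every wild type lung. The difference was -1.22 ± 0.38, with a 95% interval of -1.77 to -0.68 (limma, unadjusted p = 0.00166, adjusted p = 0.367) and pair values of -1.23, -0.84 and -1.61.

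Apcdd1 had 6 probe sets. The 4 that were lower in all 3 pairs, which include the 2 brightest, had differences between -1.36 and -1.05, and in each of them the groups did not overlap. The third brightest differed by 0.21 ± 0.49, with an intensity of 421 in CKO 3 against 182 to 254.6 on the other arrays. It and the 2 brightest carry the suffix that marks probe sets some of whose probes may bind other transcripts. The dimmest, at -0.10, was below the floor on all 6 arrays. The signal of Apcdd1 in CKO 3 on its brightest probe set, 158, was under the floor of 167 on that array.

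Rnf43 and Znrf3 are related E3 ubiquitin ligases that remove Frizzled receptors from the membrane. Rnf43 had intensities of 118, 125 and 81.8 in wild type and 159, 197 and 110.4 in CKO lungs. The CKO lung was the higher one in each pair, at 0.43, 0.65 and 0.43, although the groups overlapped because both lungs of pair 3 were dim. The mean difference was 0.50 ± 0.13, 1.42-fold, with a 95% interval of 0.05 to 0.96 (limma, unadjusted p = 0.0361, adjusted p = 0.367). Rnf43 had 1 probe set, and its level in CKO 3 was under the floor of that array.

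Znrf3 did not show that pattern. Its intensities were 462, 426 and 471 in wild type and 259, 473 and 361 in CKO lungs. CKO 1 was the lowest lung and CKO 2 the highest, so the groups overlapped. The difference was -0.35 ± 0.49 with an interval of -0.96 to 0.25, and after quantile or cyclic loess normalization its sign turned (0.06 and 0.07). Its second probe set differed by 0.09 and was below the floor on all arrays. Whether Rnf43 and Znrf3 differed from each other in response was not tested.

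Axin2 and Nkd1 are feedback inhibitors inside the cell. Axin2 is a scaffold of the destruction complex and the most widely used readout of the pathway. Its intensities were 635, 691 and 429 in wild type and 482, 501 and 212 in CKO lungs. Each CKO lung was lower than its pair, but CKO 1 and CKO 2 were above wild type 3. The difference was -0.63 ± 0.34, 1.54-fold lower, with an interval of -1.15 to -0.10 (limma, unadjusted p = 0.0273, adjusted p = 0.367) and pair values of -0.40, -0.46 and -1.02. Its second, dimmer probe set differed by -0.23 ± 0.25, with pair values of -0.02, -0.50 and -0.16.

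Nkd1 encodes a protein that binds Dishevelled, the adaptor below the receptors. It had intensities of 937, 887 and 786 in wild type and 651, 699 and 250.05 in CKO lungs. All CKO lungs lay below all wild type lungs, CKO 3 by the most. The difference was -0.84 ± 0.71 (limma, unadjusted p = 0.0324, adjusted p = 0.367), with -0.52, -0.34 and -1.65 in the 3 pairs, and it was -0.43 without pair 3. Its 3 other probe sets had differences of -0.45, -0.27 and -0.19, and in the first of these CKO 1 was higher than wild type 1 by 0.20.

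**Figure D2:**
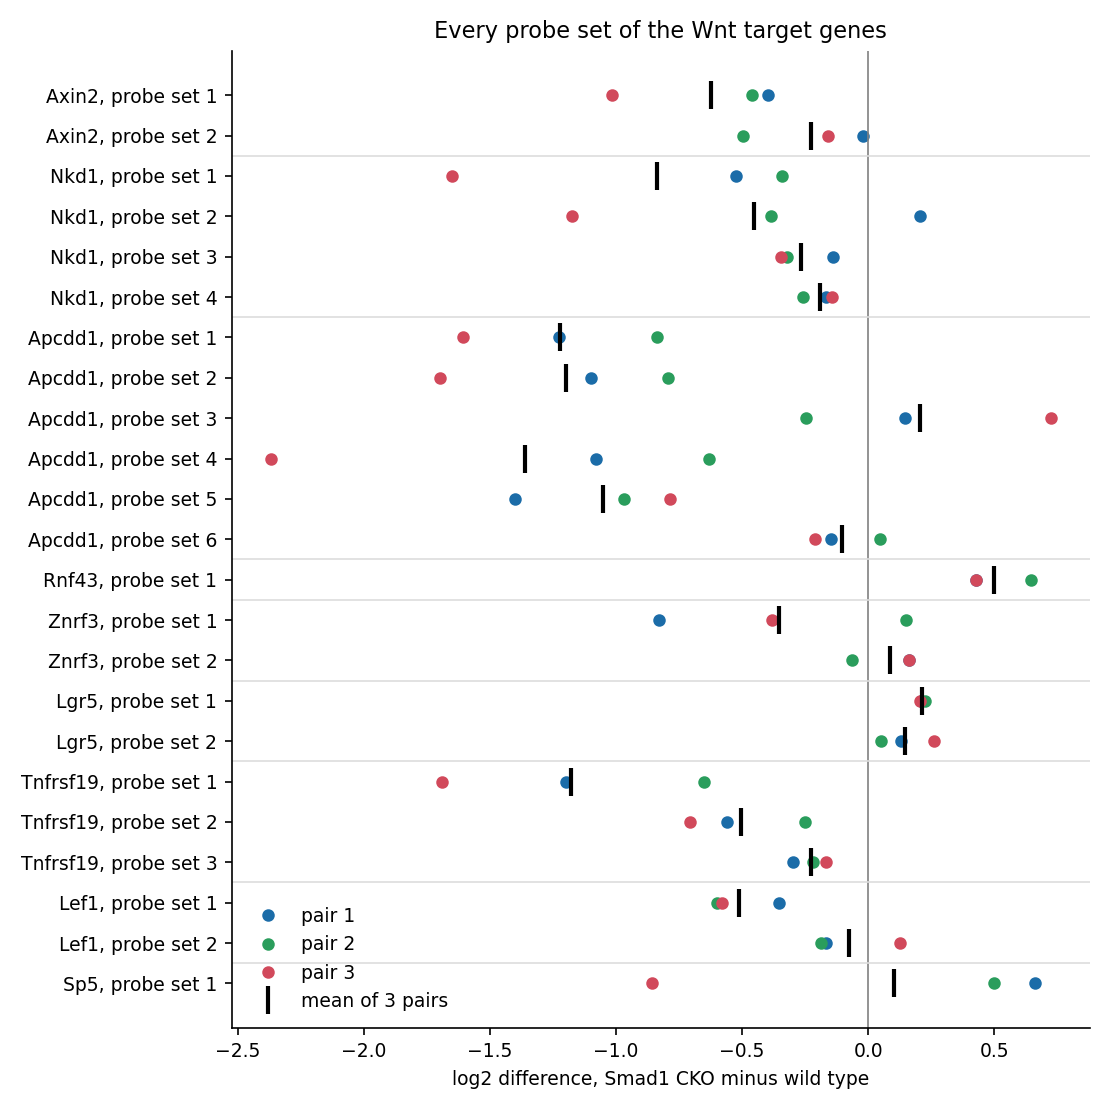
Log2 difference, Smad1 CKO minus wild type, for every probe set of the 9 genes, with a coloured point for each pair and a black bar for the mean of the 3 pairs. Probe sets are numbered within a gene from the brightest to the dimmest. In Apcdd1, 4 of 6 probe sets lie between -1.36 and -1.05, and the bright probe set of Tnfrsf19 lies further from 0 than its other 2.

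Tnfrsf19 and Lgr5 are membrane receptors among the targets. Tnfrsf19, also called Troy, is a member of the tumour necrosis factor receptor family. Its intensities were 1061, 1428 and 1158 in wild type and 462, 909.9 and 358 in CKO lungs. Every CKO lung was below every wild type lung, and the CKO lung of pair 2 was nearest to its wild type lung. The difference was -1.18 ± 0.52 with an interval of -1.80 to -0.56 (limma, unadjusted p = 0.00368, adjusted p = 0.367), and the pair values were -1.20, -0.65 and -1.69. The other 2 probe sets of Tnfrsf19 were dimmer and also lower in all 3 pairs, at -0.51 ± 0.23 and -0.23 ± 0.07.

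Lgr5 encodes a receptor for R-spondins, secreted proteins that strengthen Wnt signalling, and marks stem cells in several organs. Its brighter probe set read 57.5, 49.0 and 54.7 in wild type and 66.6, 57.6 and 63.2 in CKO lungs. The pair values of 0.21, 0.23 and 0.21 were close to each other, and the groups did not overlap by a small margin. The mean was 0.21 ± 0.01 (limma, unadjusted p = 0.279, adjusted p = 0.489), and only wild type 1 was above the floor of its array. The standard error in the limma fit, which draws on all probe sets, was 0.18. Its second probe set, at 0.15, was below the floor on all arrays. The difference is therefore one of signal near the background of the array.

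Lef1 and Sp5 are transcription factors. Lef1 binds beta-catenin at target genes and is itself a target. Its intensities were 135, 151 and 148 in wild type and 105, 99.2 and 99.1 in CKO lungs. The groups did not overlap, and the lungs within each group lay close together. The difference was -0.51 ± 0.14 with an interval of -0.97 to -0.05 (limma, unadjusted p = 0.0343, adjusted p = 0.367), and pair values were -0.35, -0.60 and -0.58. In CKO 3 the signal was under the floor of that array. The other probe set of Lef1 differed by -0.08 ± 0.18 and was above the floor on 1 array.

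Sp5, a zinc finger protein of the Sp family, is a direct target in many tissues. Its intensities were 80.8, 72.5 and 89.4 in wild type and 128, 103 and 49.0 in CKO lungs. CKO 1 and CKO 2 were above all wild type lungs and CKO 3 was below all of them. The mean difference was 0.10 ± 0.83 (limma, unadjusted p = 0.771, adjusted p = 0.865), with 0.66, 0.50 and -0.86 in the 3 pairs, so pair 3 opposed the other 2. Without that pair it was 0.58 (unadjusted p = 0.0231, adjusted p = 0.547). The signal of CKO 3 was well under the floor of 167 on that array.

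Promoter sequence was read for the members to show where the letters bound by Lef1 and Tcf7 occur. The RefSeq promoters of build GRCm38.p6 ran from 250 bases before to 50 after a start site. In them 13 entries were searched, for 7 of the members (Tcf7 among them). Lgr5 and Znrf3 had no entry, and Apcdd1, the member with the lowest difference, was left out of the search. Both strands were searched for ACAAAG and TCAAAG, the core of the Tcf/Lef motif. Neither can overlap the other in the same position. Of 32851 promoters of that length, 31.2% held at least 1 match and 1.14% held 3 or more. Among the 13 entries, 3 held a match, 1 each of Sp5, Lef1 and Tnfrsf19.

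The following promoters are shown 5′ to 3′ along the gene, with matches on either strand in capitals. They are the searched member with the most matches, the Lef1 and Tnfrsf19 starts that held any, and Axin2 for comparison, which held none. Sp5 lies at chr2:70474673-70474972 (+), Lef1 at chr3:131156044-131156343 (+), the last of its 4 entries, Tnfrsf19 at chr14:61037938-61038237 (-), the second of its 2 entries, and Axin2 at chr11:108920099-108920398 (+).
Sp5: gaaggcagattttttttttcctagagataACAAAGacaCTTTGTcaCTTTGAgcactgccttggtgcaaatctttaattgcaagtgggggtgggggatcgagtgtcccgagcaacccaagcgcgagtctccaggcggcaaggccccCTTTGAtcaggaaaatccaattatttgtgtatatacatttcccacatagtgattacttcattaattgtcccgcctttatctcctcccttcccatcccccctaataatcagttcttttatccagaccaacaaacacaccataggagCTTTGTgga
Lef1: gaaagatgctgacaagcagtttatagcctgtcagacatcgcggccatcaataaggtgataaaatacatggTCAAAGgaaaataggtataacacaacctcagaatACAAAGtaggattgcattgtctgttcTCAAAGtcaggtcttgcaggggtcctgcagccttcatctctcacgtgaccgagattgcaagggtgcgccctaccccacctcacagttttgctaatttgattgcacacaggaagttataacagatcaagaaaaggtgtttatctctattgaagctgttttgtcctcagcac
Tnfrsf19: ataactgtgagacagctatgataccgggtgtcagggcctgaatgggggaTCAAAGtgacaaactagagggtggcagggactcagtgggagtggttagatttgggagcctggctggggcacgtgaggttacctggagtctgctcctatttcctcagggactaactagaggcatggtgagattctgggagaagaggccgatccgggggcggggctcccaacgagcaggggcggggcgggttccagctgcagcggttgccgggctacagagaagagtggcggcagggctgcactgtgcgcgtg
Axin2: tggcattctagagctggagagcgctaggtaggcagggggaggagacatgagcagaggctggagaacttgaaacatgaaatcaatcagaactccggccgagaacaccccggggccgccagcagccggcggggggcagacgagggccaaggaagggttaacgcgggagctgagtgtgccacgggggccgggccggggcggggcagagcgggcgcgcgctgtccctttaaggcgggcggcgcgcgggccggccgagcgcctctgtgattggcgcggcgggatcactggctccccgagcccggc

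Sp5 held 5 matches, at 221, 212, 204 and 104 bases before the start site and 42 after it. The 3 farthest ones lie within 1 short stretch. The Lef1 start held 3 matches, at 180, 146 and 120 bases before it, while the other 3 Lef1 starts held none. Tnfrsf19 held 1, at 201 bases before the start. Apart from Apcdd1, which was not searched, the members that were lower in all 3 pairs include genes with and without a match in this window. Sp5, with the most matches of those searched, had no settled direction. A match is a description of the letters and not a site of binding.

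Because intensity in pair 3 depended strongly on brightness, each member was set beside the probe sets nearest to it in brightness. All probe sets were divided into 20 groups by mean level, each of about 2252, and the quartiles of the differences were taken in each group and pair. Apcdd1, Tnfrsf19 and Nkd1 were below the lower quartile of their group in all 3 pairs. The share of all probe sets that lie outside the quartiles in all 3 pairs is not given here, so these positions are a description. For Apcdd1 the pair values of -1.23, -0.84 and -1.61 compare with lower quartiles of -0.58, -0.16 and -1.31. For Tnfrsf19 the pair values of -1.20, -0.65 and -1.69 compare with -0.48, -0.14 and -1.503.

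Nkd1, in the same brightness group as Tnfrsf19, was nearer to those quartiles, at -0.52, -0.34 and -1.65. Rnf43 was above the upper quartile of its group in all 3 pairs, with 0.43, 0.65 and 0.43 against 0.22, 0.13 and 0.35. Axin2 was below the lower quartile in pair 2 but close to the group median in pairs 1 and 3, where it was at -0.40 and -1.02 against medians of -0.33 and -0.99. Lef1 was likewise below the lower quartile in pair 2 and within the quartiles in the other pairs. Sp5 was above the upper quartile in pairs 1 and 2 and below the lower quartile in pair 3. Znrf3 was below the lower quartile in pair 1 and above the upper quartile in pairs 2 and 3. Lgr5 was above the upper quartile in pair 2 and within the quartiles in pairs 1 and 3.

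**Figure D3:**
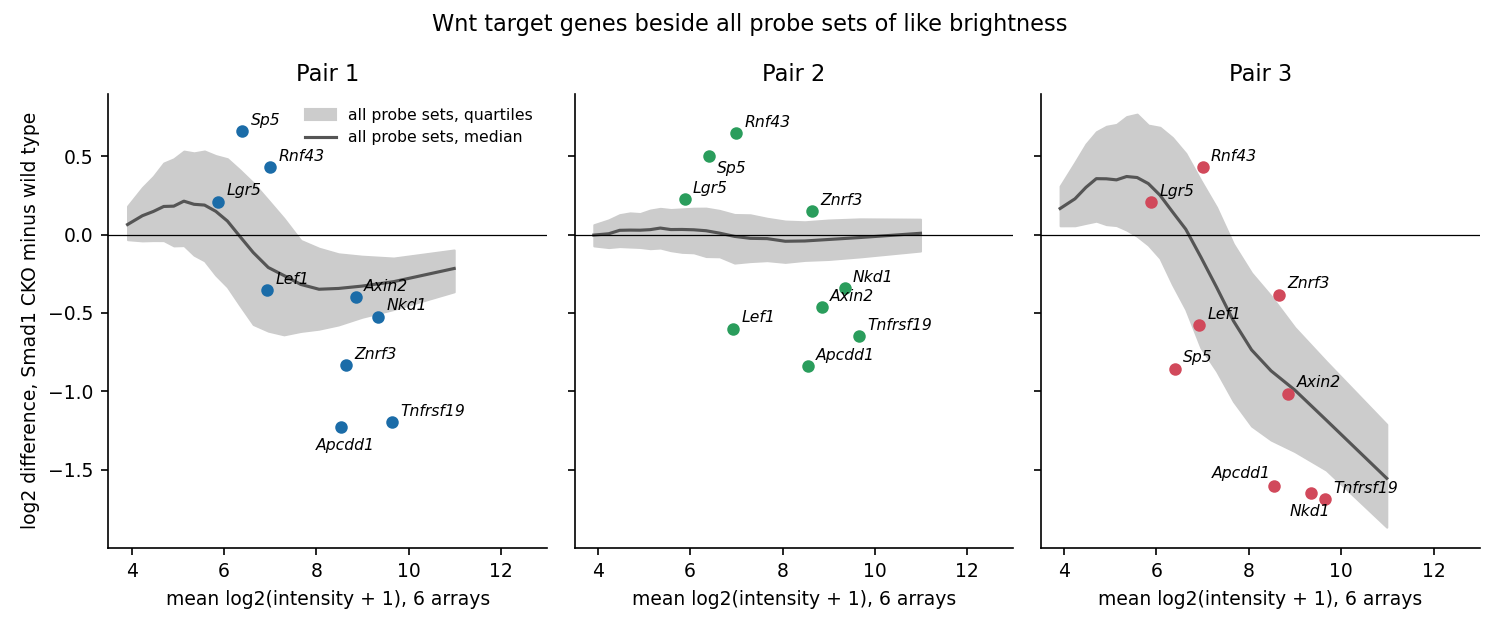
Log2 difference, Smad1 CKO minus wild type, against mean log2(intensity + 1) over the 6 arrays, with 1 panel for each pair. Points are the members by their brightest probe set, the line is the median of all probe sets of like brightness and the band spans their quartiles. In pair 3 the line falls steeply with brightness, and Axin2 lies on it, while Apcdd1 and Tnfrsf19 lie below the band in all 3 panels and Rnf43 above it.

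Without pair 3, Apcdd1 and Tnfrsf19 were still the lowest members, while Sp5 became the highest. The mean of pairs 1 and 2 was -1.03 for Apcdd1 (limma, unadjusted p = 0.00121, adjusted p = 0.346), -0.92 for Tnfrsf19 (unadjusted p = 0.00315), -0.48 for Lef1, -0.43 for Nkd1, -0.43 for Axin2, 0.54 for Rnf43 (unadjusted p = 0.0331) and 0.58 for Sp5 (unadjusted p = 0.0231). In that fit 2 members were lower and 2 higher at an unadjusted p under 0.05, against 6.19% and 3.53% of all genes, and none passed after adjustment. After cyclic loess normalization, which removes differences that depend on brightness, Apcdd1 was at -0.81, Tnfrsf19 at -0.67 and Rnf43 at 0.64 (limma, unadjusted p = 0.00139, 0.00509 and 0.00406, adjusted p = 0.336 for each). Axin2 was then at -0.18 (unadjusted p = 0.294). By that measure 3 members were lower and 1 higher at an unadjusted p under 0.05, against 6.25% and 8.82% of all genes.

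**Figure D4:**
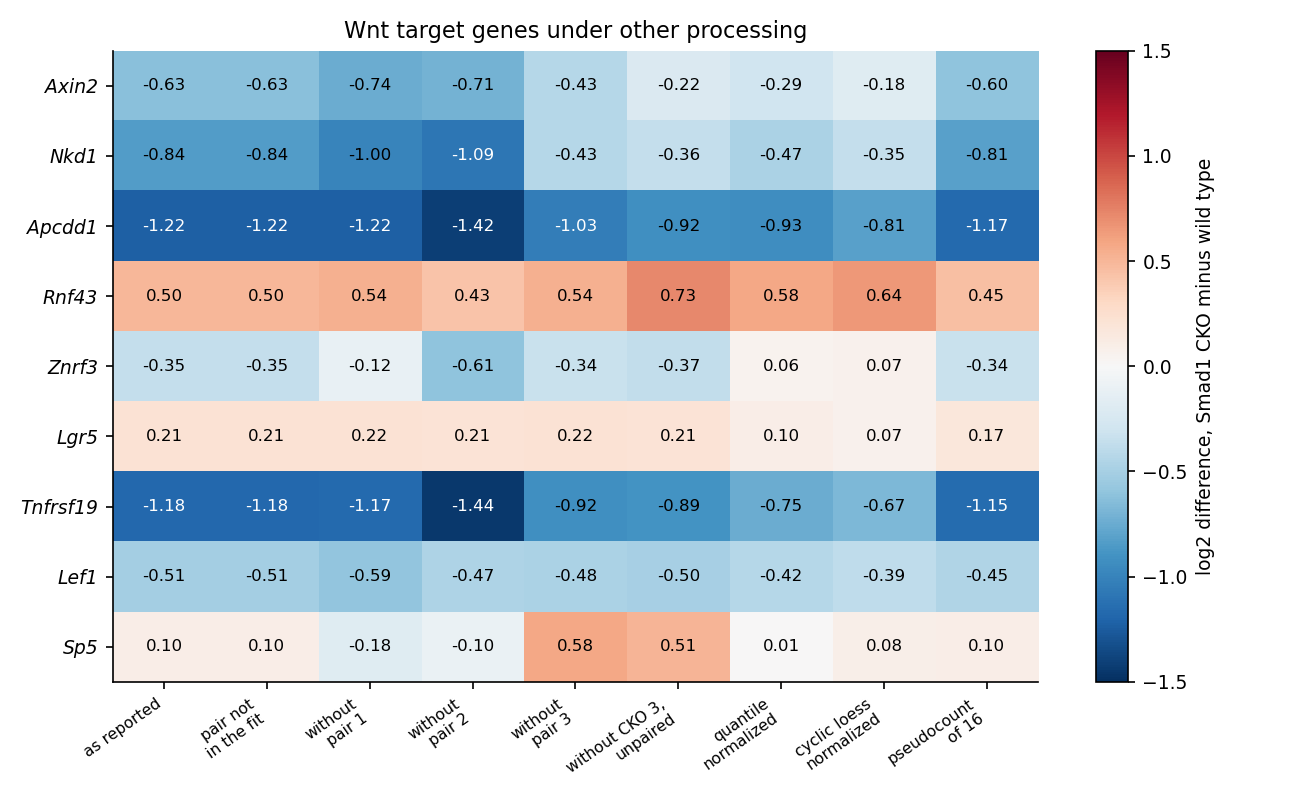
Log2 difference of each member, Smad1 CKO minus wild type, as reported and under other processing, with blue for lower and red for higher in CKO lungs. Apcdd1 stays between -1.42 and -0.81 and Rnf43 between 0.43 and 0.73, while Sp5 and Znrf3 take both signs.

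By the rule of likeness, the genes whose log2 level followed Axin2 most closely over the 6 arrays were Stard8 (Pearson r = 0.999), Zfp219 (0.999), Denn2b (0.999), Pde4b (0.998) and Mepce (0.998), out of 11840 genes brighter than the median probe set. Of the other members, Nkd1 had an r of 0.955 with Axin2, Apcdd1 0.852 and Tnfrsf19 0.785. Rnf43 had 0.245 and Lgr5 -0.564. All of these correlations share the low array of CKO 3, and with 6 points they are a description only.

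The other genes of the pathway were read from 4 lists. Among R-spondins and their receptors other than Lgr5, 1 of 6 genes was lower in all 3 pairs and 2 were higher, against 29.3% and 21.0% of all genes. The median of these 6 was 0.18, and 1 of them was above the floor on all arrays. Rspo1 was lower in every pair at -0.94 ± 0.58 (limma, unadjusted p = 0.0128, adjusted p = 0.367), with intensities of 167, 184 and 168 in wild type and 91.0, 139 and 56.2 in CKO lungs, and its groups did not overlap. In CKO 3 the signal of Rspo1 was under the floor of that array. Rspo2 differed by 0.71 ± 0.84, of which pair 2 alone gave 1.65, and it was above the floor on only 2 arrays. Rspo3, which was below the floor on all arrays, differed by 0.38, and Rspo4, above it on only 1 array, by 0.46.

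The destruction complex and the Dishevelled proteins with their regulators were lower in all 3 pairs for 6 of 19 genes and higher for 2, against 29.3% and 21.0% of all genes. By limma none had an unadjusted p under 0.05, and the median was -0.29. Axin1, the constitutive scaffold, was at -0.52 ± 0.35 and Apc at -0.53 ± 0.44. Dact1, which binds Dishevelled, was at -0.43 ± 0.07 with like values in all pairs. Dvl3 was at 0.56 ± 0.51, with a signal above the floor on only 1 array. The list median was -0.07 without pair 3 and turned to 0.13 and 0.19 after quantile and cyclic loess normalization.

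Among 19 nuclear partners of beta-catenin 12 were lower and 0 higher in all 3 pairs, and 3 were lower at an unadjusted p under 0.05 in limma. Over all genes, 29.3% were lower and 21.0% higher in all pairs, and 9.96% were lower at that unadjusted p. The median was -0.41, but -0.20 without pair 3, -0.08 without CKO 3 (unpaired), -0.12 after quantile and -0.05 after cyclic loess normalization. Sox17, an endothelial and endodermal factor that can bind beta-catenin, was at -1.12 ± 0.81. The acetyltransferase Ep300 was at -0.64 ± 0.39, the corepressor Tle4 at -0.64 ± 0.48 and the coactivator Bcl9 at -0.53 ± 0.35. Ctnnb1, the gene of beta-catenin itself, named here after its values were seen, was at -0.09 and 0.03 in pairs 1 and 2 and at -1.68 in pair 3.

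Of 32 measured genes that are reported as beta-catenin targets elsewhere, 11 were lower and 7 higher in all 3 pairs, against 29.3% and 21.0% of all genes, with a median of -0.17. At an unadjusted p under 0.05 in limma, 7 were lower and 1 was higher, against 9.96% and 4.96% of all genes. None passed after adjustment (limma, adjusted p = 0.367 at the lowest). Tiam1, an activator of Rac, was at -1.16 ± 0.50 (unadjusted p = 0.0036), and Tbx3, a T-box factor of lung mesenchyme, at -0.88 ± 0.19 (unadjusted p = 0.00403). Notum, a secreted enzyme that inactivates Wnt proteins and thus a further feedback inhibitor, was at -0.84 ± 0.23 (unadjusted p = 0.00578) with pair values of -0.84, -0.60 and -1.07 and no overlap between groups. In CKO 3 the signals of Notum (55.0) and Tiam1 (104) were under the floor of 167 on that array. Trib2, a pseudokinase, was at -0.87 ± 0.49. In this list the median without pair 3 was 0.0080, and it was 0.13 after quantile or cyclic loess normalization, so the list as a whole had no settled direction.

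**Figure D5:**
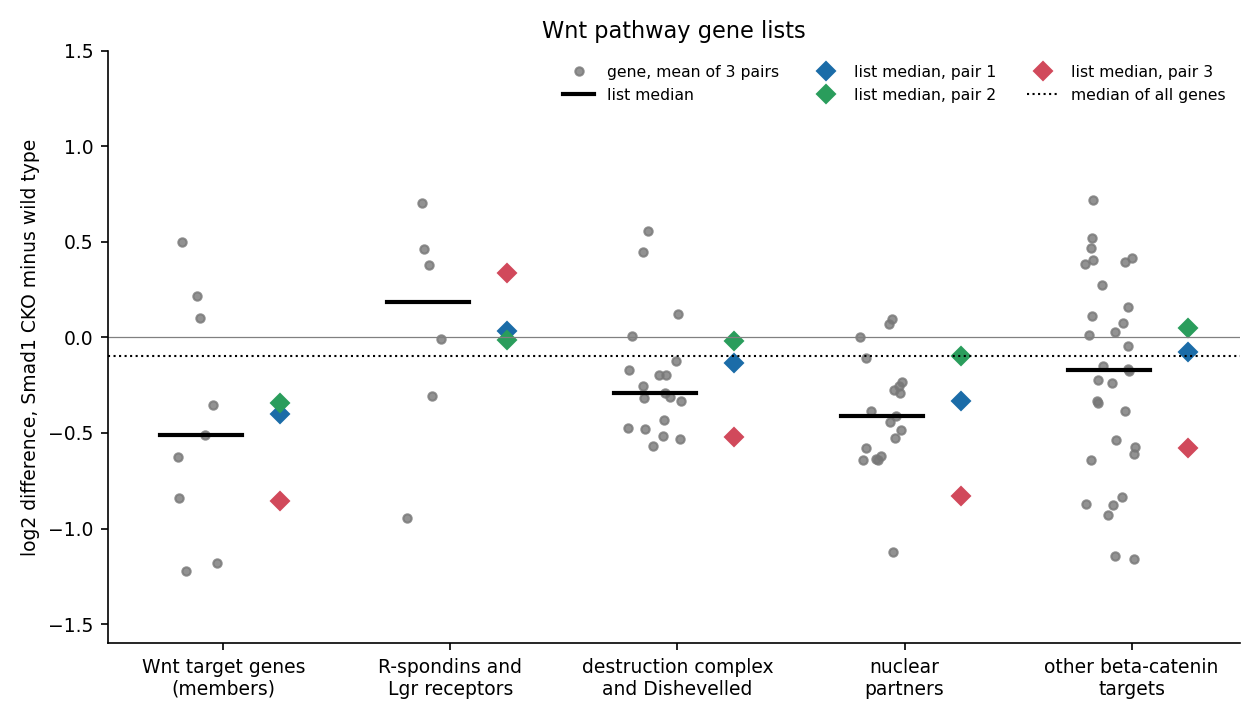
Log2 difference, Smad1 CKO minus wild type, for the genes of the 9 measured members and of 4 further Wnt pathway lists (grey points, mean of 3 pairs), with the list median as a black bar and the list median in each pair as a diamond. The members' medians of -0.40, -0.34 and -0.86 lie below 0 in each pair, and the dotted line marks the median of all genes at -0.09.

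Markers of the cell types in the lobe did not share 1 direction, and their part in the results was not tested. Over all genes, 29.3% were lower and 21.0% higher in all 3 pairs. Their summed intensity was 8345500 to 9460830 in wild type and 4250690 to 9258760 in CKO lungs. Most of the markers are bright, and the brightest of the 3 brightness groups had a median of -0.96 in pair 3. All 6 endothelial markers were lower in all 3 pairs, with a median of -0.98. The summed intensity of these 6 was 8501 to 12054 in wild type and 2316 to 8171 in CKO lungs. Of 7 mesenchymal markers 3 were lower and 1 higher in all pairs, with a summed intensity of 34604 to 42147 and 9169 to 40098, and in pair 2 their median was 0.01. Alveolar type 1 markers (5 of 5) and alveolar type 2 markers (4 of 5) were lower in all pairs, while of 6 general epithelial markers 2 were lower and 0 higher. The summed intensities of these 3 lists were 26442 to 28067, 50121 to 58063 and 11507 to 11876 in wild type and 6296 to 22464, 10426 to 38799 and 3603 to 13238 in CKO lungs. Lef1 is also expressed in T cells, whose 6 measured markers summed to 310.2 to 423 in wild type and 325 to 931 in CKO lungs. The sum of 931 was that of CKO 3, where the floor was 167 and the dimmest of the 3 brightness groups had a median of 0.28. None of these 6 markers was lower in all pairs, and Cd3g and Il7r were below the floor on all arrays. Smooth muscle markers (0 of 5 lower in all pairs, sums of 6317 to 8364 and 3294 to 7711) and blood cell markers (1 of 5, sums of 3764 to 4099 and 1644 to 3954) showed no common direction. Apart from T cells, the lowest CKO sum of each list was that of CKO 3, an array on which bright probe sets were low in general.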

How the data were processed

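Left lung lobes of 6 mouse fetuses were profiled, 3 wild type and 3 Smad1 CKO. Each deposited value is the linear intensity of a probe set, and RMA (background correction, normalization and probe summary) is named per the submitters' processing notes, with software and settings not given in the sources used here. Depth has no meaning for arrays, and the number of arrays limits the precision.

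Intensities were turned into log2(intensity + 1). The 64 control probe sets were left out. Platform annotation gave 1 symbol to 34945 probe sets, several to 932 and none to 9160, and probe sets with several were tested but not named. The 2-sided test of genotype used lmFit and eBayes (limma 3.58.1, R 4.3.3), the pair being a fixed block. Pairing was taken from the design text and the letter in each array name. Deviations from group means correlated within pairs at 0.258, 0.604 and 0.598, and at 0.215 or lower otherwise. The fit was tested on simulated data.

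The members and lists were chosen with earlier results of these data known. All members and, from each pathway list, the 4 genes with the smallest p are named, and for Axin2 the 5 genes most like it. Alternatives were the pair, single pairs, CKO 3, normalization, pseudocount, dim probe sets and an intensity trend.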

Additional observations from a re-analysis of the deposited data

How the results depend on the processing

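Under 10 alternatives, Axin2, Apcdd1, Tnfrsf19, Lef1 and Nkd1 stayed lower and Rnf43 and Lgr5 stayed higher, and no member was called in any of them (limma, adjusted p from 0.179 to 0.995). Most of these alternatives could not turn the sign of a gene with the same direction in every pair. Leaving out a pair or raising the pseudocount keeps it, and the block, dim probe sets and intensity trend leave the difference itself unchanged. Only the fit without CKO 3 (unpaired) and the quantile and cyclic loess normalizations could have turned it. Axin2 ranged from -0.74 to -0.18 and Nkd1 from -1.09 to -0.35. Sp5 turned to -0.18 without pair 1 and to -0.097 without pair 2 (0.58 without pair 3), and Znrf3 turned to 0.056 after quantile and 0.070 after cyclic loess normalization. The members' median moved to -0.18 after cyclic loess and was -0.61 to -0.43 with single pairs left out. The median over destruction complex and Dishevelled genes turned to 0.0055 without CKO 3 (unpaired), 0.13 after quantile and 0.19 after cyclic loess, and that over all genes to 0.026 after quantile and 0.049 after cyclic loess normalization. The cause was not tested.

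With all 3 pairs limma called 1 probe set, which is none of the members'. Without the replicate block (genotype alone, the pairing ignored) it called 0, with 1643 at an unadjusted p under 0.05, after quantile normalization 0 (4151) and with a pseudocount of 16 also 0 (4656). It called 2 after cyclic loess, 17 of the 30024 left without the dimmest of 3 brightness groups, and 32 with an intensity trend. Why these counts differ was not tested. With single pairs left out the count was 0 (without pair 1, 655 unadjusted) to 28 (without pair 3). The number of arrays, 3 per genotype, limits what could be called. Among the members, signals near the floor limit Lgr5 and, in CKO 3, Apcdd1, Lef1, Rnf43 and Sp5.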
